A study of Mus musculus with 5 samples.

Results

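Solute carriers are membrane proteins that move amino acids, sugars, lactate, metals, ions, vitamins and neurotransmitters across the plasma membrane and the membranes of organelles. The genes are numbered by family, and the family number gives a broad substrate class. In skeletal muscle, carriers of glucose, amino acids and lactate feed growth and contraction, and the Slc25 family serves the inner mitochondrial membrane. The solute carrier genes were taken as every symbol that starts with Slc and a digit, which gave 99 of the 4743 genes in the deposited tables, from 37 families. They were described in 3 Noggin-deficient (NgKo) and 2 wild type (NgWt) libraries of forelimb muscle, taken from mouse embryos of strain C57BL/6 at E15.5 (days of embryonic development). Noggin is a secreted antagonist of bone morphogenetic proteins, and the labels give NgKo as Noggin-deficient and NgWt as the wild type control. The allele, and whether a library came from 1 embryo or a pool, are details that the sources used here do not give, so the p-values measure only the spread between these libraries, which may be technical.

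The values are an expression signal in the authors' own normalization, whose unit the sources used here do not name, and levels are compared only between groups, never between genes. Nog itself had 0.49, 0.42 and 0.42 in the NgKo libraries, against 2 and 1.99 in the NgWt libraries, a log2 change of -1.70 ± 0.092 (SE; adjusted p = 2.6e-06, limma). Skeletal muscle markers were present in all 5 libraries and summed 3480 to 3640 in the NgKo libraries and 5100 to 5180 in the NgWt libraries, with 10 of 11 tested markers lower and 1 higher in NgKo. Of all tested genes, 60.1% were lower and 37.9% higher in NgKo. Markers of other tissues moved with the genotype. Of the tested markers, 18 of 18 epidermis genes were lower, and the list summed 1500 to 1570 in the NgKo libraries and 3560 each in the NgWt libraries. All 12 neuron genes and all 12 liver genes were higher. The neuron list summed 33.9 to 34.7 in the NgKo libraries and 8.22 to 8.31 in the NgWt libraries, and the liver list summed 103 to 104 in the NgKo libraries and 1.67 to 1.88 in the NgWt libraries, with Serpina1a and Fgb listed at 0 in both NgWt libraries. Of 11 erythroid genes 10 were higher and 1 lower, and the list summed 231 to 236 in the NgKo libraries and 102 to 105 in the NgWt libraries. Of 8 fat cell genes 6 were higher and 2 lower, and the list summed 347 to 355 in the NgKo libraries and 189 to 196 in the NgWt libraries. Of 6 glial genes 2 were higher and 4 lower, and the list summed 37.2 to 39.9 in the NgKo libraries and 47.6 each in the NgWt libraries. The part of these tissues in the carrier results was not tested, and fewer cells of a type cannot be told apart from less RNA per cell.

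Of the 99 solute carrier genes, 80 passed the filter on low values (at least 0.5 in at least 2 libraries) and were tested on log2(value + 0.25) with limma, with adjustment over all 3913 tested genes. At an adjusted p under 0.05, 28 were higher and 50 lower in NgKo (35% and 62.5% of those tested), against 37.9% and 60.1% of all tested genes. The carriers thus moved in much the same proportions as the tables as a whole. In either direction 98.0% of all tested genes were called, so the deposited tables hold almost only genes that differ between these libraries, by a selection whose rule is unknown here. A call therefore adds little to membership in the table, and the direction and size carry the description. NgKo and NgWt values were fully separate for 98 of the 99 carriers, against 98.2% of all listed genes. The exception was Slc6a14, a broad amino acid carrier, with 0.12, 0.08 and 0.19 in the NgKo libraries and 0.18 and 0.29 in the NgWt libraries. Groups without overlap are therefore usual among the listed genes, and are no mark of the carriers for which they are stated below. The 2 tested carriers that were not called were Slc7a4 and Slc26a7. Of the tested carriers, 3 passed the filter through NgKo libraries alone (Slc6a2, Slc36a2 and Slc16a11) and 6 through NgWt libraries alone (Slc44a5, Slc5a9, Slc5a1, Slc25a34, Slc28a3 and Slc15a1), so these had to differ. Slc46a2, Slc9a2 and Slc47a1 had 1 NgKo library at 0.5 or more and needed the NgWt libraries to pass. Slc39a5 had 1 NgWt library at 0.5 or more and needed the NgKo libraries. The filter favoured the direction of these as well.

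The median log2 change of the tested carriers was -0.32, and that of all tested genes -0.28. As deposited, called rises had a median of 0.43, and 1 of them, Slc6a2, exceeded a log2 change of 1. Called falls had a median of -0.48, and 9 exceeded a log2 change of 1 in size. Of these, Slc15a1, Slc5a1, Slc28a3 and Slc25a34 had passed the filter through NgWt libraries alone, as Slc6a2 had through NgKo libraries alone. The filter thus fixed their direction, and no share over this size is read from them. The value of 0.25 added before the logarithm shrinks changes of low genes. Ratios of NgKo to NgWt means were 2.06 for Slc36a2, 0.49 for Slc39a2, 0.47 for Slc9a2, 0.46 for Slc52a3 and 0.39 for Slc5a9, all outside these counts. Tested as deposited against a 1.5-fold change by limma's treat, 1 carrier was higher and 13 were lower, against 4.22% and 10.3% of all tested genes. The 1 higher was Slc6a2, and the lower ones were Slc15a1, Slc10a6, Slc5a1, Slc46a2, Slc28a3, Slc25a48, Slc6a4, Slc25a34, Slc26a2, Slc52a3, Slc7a11, Slc2a3 and Slc7a1. These counts include the carriers whose direction the filter fixed, so they are not read against the shares of all tested genes. The sizes of rises and falls depend on the scaling. Median-of-ratios scaling, computed over the deposited genes, moved the median of all genes by 0.26. Rises grew with it, as from 0.41 to 0.68 for Slc16a3, and falls shrank, as from -0.38 to -0.11 for Slc7a5. Under it 28 carriers were called higher and 29 lower, against 38.6% and 32.2% of all genes tested. Upper-quartile scaling gave 28 carriers higher and 38 lower, against 38.5% and 42.1%. Both scalings take their factors from the deposited genes, of which 98.0% of those tested were called. Such factors can remove a real shift shared by many genes, so it cannot be told which scaling is right. Each class is therefore given with its median under another scaling. The counts of each class and gene list stand beside the 60.1% of all tested genes that were lower and the 37.9% that were higher.

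**Figure D1:**
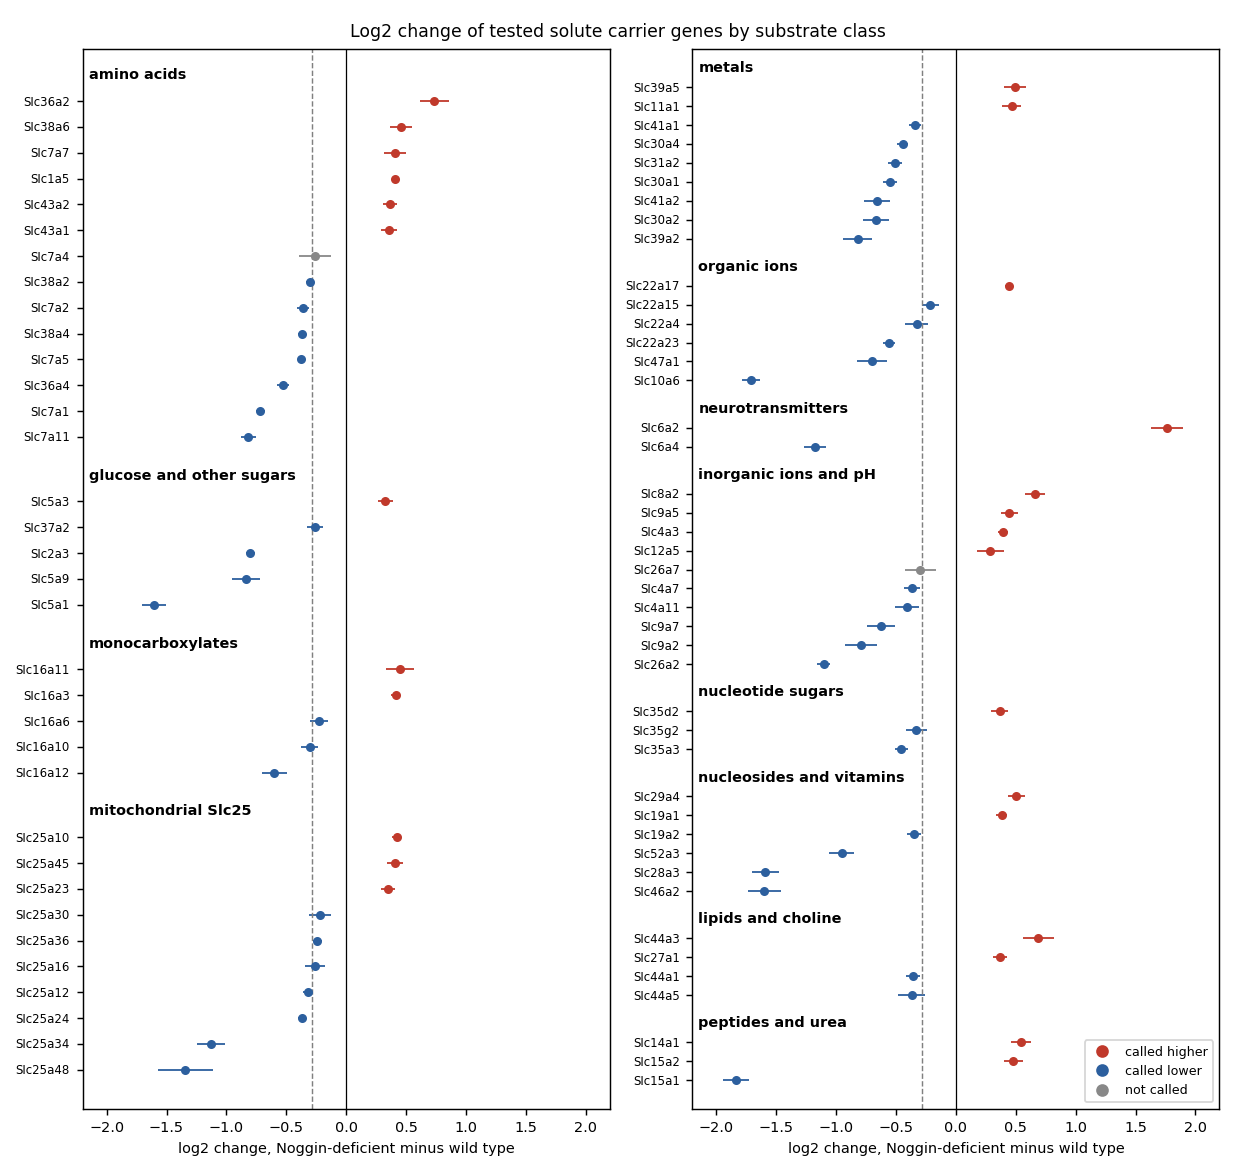
Log2 change (NgKo minus NgWt, horizontal axis) of 77 of the 80 tested solute carrier genes, grouped by substrate class. Points are limma estimates, bars are 1 SE, and the dashed line is the median of all tested genes at -0.28. In the values as deposited, all rises shown but that of Slc6a2 sit between 0.29 and 0.74, and the falls reach further, to -1.83 for Slc15a1.

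Amino acid carriers split by direction. Of 16 listed, 14 were tested, 6 were higher and 7 lower, with a median log2 change of -0.28. With libraries scaled by median of ratios the median of these carriers was -0.041, and with the length trend taken out it was 0.021, with 5 and 5 of the falls still called and 6 rises called under each. The falls included the cystine and cationic amino acid carriers. Slc7a11, the light chain that exchanges cystine for glutamate, had 1.83, 1.83 and 1.95 in the NgKo libraries, against 3.46 and 3.51 in the NgWt libraries, a log2 change of -0.82 ± 0.063 (SE; adjusted p = 1.4e-05, limma). For Slc7a1, the main cationic amino acid carrier, the NgKo libraries held 6.55, 6.95 and 6.68 and the NgWt libraries 11.3 and 11.1, a log2 change of -0.72 ± 0.04 (SE; adjusted p = 3.2e-06, limma). Every NgWt library lay above every NgKo library for both genes, and 98.2% of all listed genes had groups without overlap. The promoter window of Slc7a11 is shown with that of Slc7a7 because they were the only amino acid carriers whose window held the core TGATGNAA, the binding core of ATF4 and C/EBP factors in the response to amino acid shortage. Windows run from 250 bases before to 50 after the start in RefSeq on build GRCm38.p6, were found for 11 of the 16 amino acid carriers, and were searched on both strands. Capitals mark the core.
Slc7a11 (chr3:50443564-50443863, minus strand): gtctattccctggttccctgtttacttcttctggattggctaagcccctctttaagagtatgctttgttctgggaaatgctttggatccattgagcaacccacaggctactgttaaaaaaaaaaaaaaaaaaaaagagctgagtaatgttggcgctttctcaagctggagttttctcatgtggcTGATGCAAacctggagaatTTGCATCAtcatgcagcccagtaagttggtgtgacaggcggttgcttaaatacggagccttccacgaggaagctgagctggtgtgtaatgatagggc
Slc7a7 (chr14:54417895-54418194, minus strand): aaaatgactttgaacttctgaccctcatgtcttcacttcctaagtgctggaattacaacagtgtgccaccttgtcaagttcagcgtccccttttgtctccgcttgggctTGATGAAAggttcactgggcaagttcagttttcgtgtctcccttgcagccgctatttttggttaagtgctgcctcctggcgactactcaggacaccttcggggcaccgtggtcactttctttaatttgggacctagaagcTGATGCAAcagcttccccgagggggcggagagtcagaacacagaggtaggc

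Slc7a11 holds the core in both orientations, starting at 66 and 47 bases before the start. The core was in 3.97% of all 32851 windows and in 3 of 94 windows of solute carriers. It was in the window of 1 gene that fell and 1 that rose, since Slc7a7, a light chain for cationic and neutral amino acids, was at 2.59, 2.43 and 2.74 in NgKo and at 1.71 and 2.07 in NgWt, a log2 change of 0.41 ± 0.091 (SE; adjusted p = 0.0031, limma). Slc7a7 is outside the rule for named genes and was chosen after its values were seen.

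The other amino acid falls were smaller. The values of Slc7a5, the large neutral amino acid carrier LAT1, were 24.8, 24.8 and 24.9 in NgKo and 32.4 and 32.3 in NgWt, with a log2 change of -0.38 ± 0.026 (SE; adjusted p = 8.4e-06, limma). In NgKo Slc38a4, a sodium-coupled neutral amino acid carrier, stood at 36.4, 36.1 and 34.96, against 45.05 and 47.7 in NgWt, a log2 change of -0.37 ± 0.035 (SE; adjusted p = 3.7e-05, limma). Slc38a2, the carrier SNAT2, which adapts to amino acid supply, had 39.5, 38.3 and 38.7 in the NgKo libraries, against 47.05 and 48.97 in the NgWt libraries, a log2 change of -0.30 ± 0.03 (SE; adjusted p = 4.8e-05, limma). In these 3 genes the lowest NgWt library was above the highest NgKo library. After scaling by median of ratios, the change was -0.032 (adjusted p = 0.39) for Slc38a2 and -0.10 (adjusted p = 0.12) for Slc7a2. With no length trend it was 0.027 (adjusted p = 0.42) for Slc38a2 and 0.014 (adjusted p = 0.82) for Slc7a2. The remaining falls were Slc36a4, a proton-coupled carrier relative, at -0.53 and Slc7a2, an arginine carrier, at -0.36 on the log2 scale. For Slc36a2, a proton-coupled carrier of glycine and proline also known from brown fat, the NgKo libraries held 1.02, 0.77 and 0.87 and the NgWt libraries 0.41 and 0.45, a log2 change of 0.74 ± 0.12 (SE; adjusted p = 6.0e-04, limma). It was the largest rise of the class, but it passed the filter through NgKo libraries alone, so the filter fixed its direction. The fat cell markers summed 347 to 355 in the NgKo libraries and 189 to 196 in the NgWt libraries. Their part in this rise was not tested. Slc1a5, the glutamine carrier ASCT2, was at 23.8, 24.1 and 23.9 in NgKo and at 17.9 and 17.96 in NgWt, a log2 change of 0.41 ± 0.027 (SE; adjusted p = 7.5e-06, limma). Slc1a5, likewise named after its values were seen, and Slc7a5 thus lay on opposite sides, with no overlap between groups in either. Slc38a6, Slc43a2 and Slc43a1 rose by 0.46, 0.37 and 0.36 on the log2 scale. Slc7a4 had a log2 change of -0.26 and was not called (adjusted p = 0.096). Of the carriers too low to test, Slc38a5, a neutral amino acid carrier, had 0.42, 0.38 and 0.32 in NgKo and 0.15 and 0.17 in NgWt. The other, Slc7a14, had 0.07, 0.06 and 0.09 in NgKo and 0.01 and 0.01 in NgWt.

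**Figure D2:**
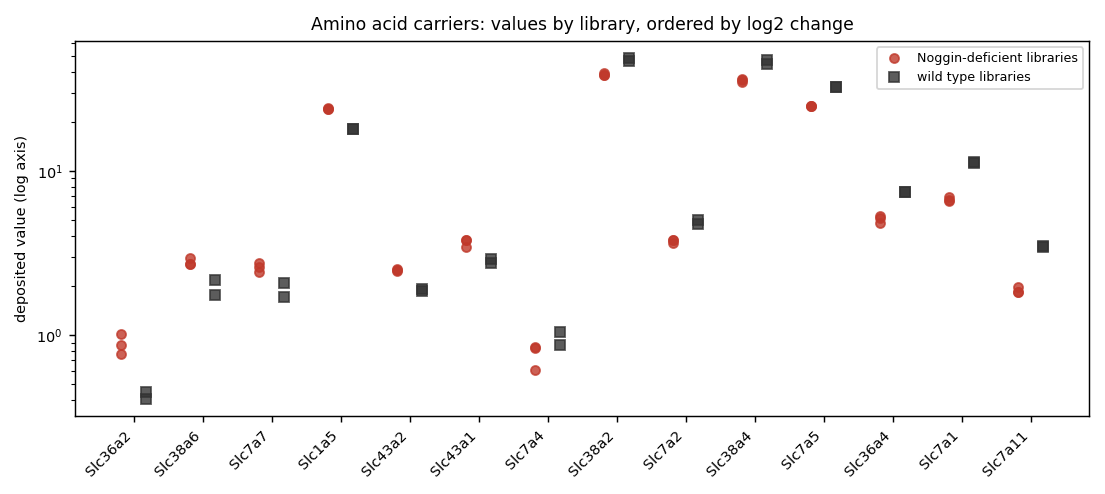
Deposited values (vertical log axis, unit not named) of the tested amino acid carriers in each library, ordered by log2 change from the largest rise on the left to the largest fall on the right. Circles are the 3 NgKo libraries and squares the 2 NgWt libraries, and the circles lie above the squares for the 6 genes on the left and below them for the rest.

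In the sugar class, set by family number, the 1 tested rise was that of Slc5a3, an inositol carrier. Of 9 listed, 5 were tested, 4 were lower and 1 higher, with a median log2 change of -0.80. Median-of-ratios factors gave the class a median of -0.53, and with no length trend one of -0.47. The values of Slc5a1, the sodium-glucose cotransporter SGLT1 of gut and kidney, were 0.31, 0.38 and 0.33 in NgKo and 1.51 and 1.58 in NgWt, with a log2 change of -1.61 ± 0.099 (SE; adjusted p = 5.2e-06, limma). In NgKo Slc2a3, the glucose carrier GLUT3, stood at 6.65, 6.73 and 6.63, against 11.8 and 11.8 in NgWt, a log2 change of -0.80 ± 0.035 (SE; adjusted p = 1.1e-06, limma). Slc5a9, a sodium-coupled mannose and fructose carrier, had 0.29, 0.22 and 0.23 in the NgKo libraries, against 0.64 and 0.63 in the NgWt libraries, a log2 change of -0.84 ± 0.11 (SE; adjusted p = 2.6e-04, limma). Slc5a1 and Slc5a9 passed the filter through NgWt libraries alone, so their falls were fixed by it and the class median, which rests on them, is no sign of a fall of the class. Of the other tested members, Slc2a3 and Slc37a2 were lower and Slc5a3 was higher. Slc5a1 was among the 6 largest falls of the whole family. For Slc37a2, a sugar phosphate exchanger of the endoplasmic reticulum, the NgKo libraries held 2.43, 2.49 and 2.63 and the NgWt libraries 2.92 and 3.21, a log2 change of -0.26 ± 0.068 (SE; adjusted p = 0.0068, limma). The median-of-ratios factors gave a change of -0.0096 (adjusted p = 0.92) for Slc37a2. Taking out the length trend gave 0.064 (adjusted p = 0.43) for Slc37a2. Slc37a2 had a log2 change of -0.20 (adjusted p = 0.058) without NgWt replicate 2. Slc5a3, the sodium-coupled inositol carrier, was at 2.48, 2.37 and 2.51 in NgKo and at 1.91 and 1.9 in NgWt, a log2 change of 0.33 ± 0.063 (SE; adjusted p = 0.0015, limma). Slc5a3 was the 1 tested member of the class above the NgWt libraries. Of the untested members, Slc2a2, the liver glucose carrier GLUT2, had 0.03, 0.06 and 0.11 in NgKo and 0.01 and 0.01 in NgWt, and Slc45a1 had 0.04, 0.06 and 0.07 in NgKo and was listed at 0 in both NgWt libraries. Slc5a5, the iodide carrier, had 0.33, 0.21 and 0.23 in NgKo and 0.38 and 0.45 in NgWt, and Slc37a1 had 0.12, 0.25 and 0.22 in NgKo and 0.37 and 0.4 in NgWt. Beside the carriers, 8 of 10 tested genes of glycolysis and lactate metabolism were lower and 2 higher, with a median log2 change of -0.36 (-0.10 with median-of-ratios scaling). Of all tested genes 60.1% were lower and 37.9% higher, with a median of -0.28 (-0.0255 with that scaling). The muscle enolase Eno3 had a log2 change of -0.70 ± 0.029 (SE; adjusted p = 8.6e-07, limma) and the muscle phosphoglycerate mutase Pgam2 one of -0.56 ± 0.032 (SE; adjusted p = 3.6e-06, limma).

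The Slc16 family of monocarboxylate carriers had 5 listed members, all tested, of which 2 were higher and 3 lower (median log2 change -0.23). This median became 0.018 with median-of-ratios scaling and -0.0034 when the length trend was taken out, so the sign of the median turned with the scaling. The values of Slc16a3, the carrier MCT4 that exports lactate from glycolytic fibres, were 18.8, 18.3 and 17.5 in NgKo and 13.8 and 13.4 in NgWt, with a log2 change of 0.41 ± 0.038 (SE; adjusted p = 3.5e-05, limma). In NgKo Slc16a11, a relative of the pyruvate carriers, stood at 0.67, 0.7 and 0.6, against 0.36 and 0.47 in NgWt, a log2 change of 0.45 ± 0.12 (SE; adjusted p = 0.0065, limma). Slc16a11 had a log2 change of 0.33 (adjusted p = 0.066) without NgWt replicate 1. Slc16a12, a creatine carrier, had 0.64, 0.58 and 0.54 in the NgKo libraries, against 0.95 and 1.09 in the NgWt libraries, a log2 change of -0.60 ± 0.1 (SE; adjusted p = 8.3e-04, limma). Slc16a11 passed the filter through NgKo libraries alone, so the filter fixed its direction. Groups did not overlap in Slc16a3 and Slc16a12, and MCT4 rose while the creatine carrier fell. For Slc16a10, a carrier of aromatic amino acids, the NgKo libraries held 1.87, 1.9 and 2.05 and the NgWt libraries 2.53 and 2.38, a log2 change of -0.31 ± 0.071 (SE; adjusted p = 0.0038, limma). Slc16a6, known in zebrafish liver as an exporter of ketone bodies, was at 1.73, 1.97 and 1.92 in NgKo and at 2.26 and 2.2 in NgWt, a log2 change of -0.23 ± 0.076 (SE; adjusted p = 0.021, limma). After scaling by median of ratios, the change was -0.060 (adjusted p = 0.5) for Slc16a10 and 0.018 (adjusted p = 0.87) for Slc16a6. With no length trend it was -0.0034 (adjusted p = 0.97) for Slc16a10 and -0.014 (adjusted p = 0.88) for Slc16a6. Slc16a6 had a log2 change of -0.18 (adjusted p = 0.054) without NgKo replicate 1, -0.21 (adjusted p = 0.09) without NgWt replicate 1 and -0.24 (adjusted p = 0.057) without NgWt replicate 2. Emb, the gene of embigin, an accessory subunit of this family, had 6.9, 6.69 and 6.96 in the NgKo libraries, against 10.3 and 10.8 in the NgWt libraries, a log2 change of -0.61 ± 0.041 (SE; adjusted p = 7.8e-06, limma).

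Mitochondrial carriers went both ways. Of 12 listed, 11 were tested, 4 were higher and 7 lower (median log2 change -0.24). With libraries scaled by median of ratios the median of these carriers was 0.024, and with the length trend taken out it was 0.016, so the median turned positive, with 2 and 3 of the falls called. The values of Slc25a48 were 0.64, 0.86 and 0.36 in NgKo and 2.02 and 1.77 in NgWt, with a log2 change of -1.34 ± 0.23 (SE; adjusted p = 7.6e-04, limma). In NgKo Slc25a34 stood at 0.1, 0.1 and 0.12, against 0.56 and 0.5 in NgWt, a log2 change of -1.13 ± 0.12 (SE; adjusted p = 5.9e-05, limma). Both fell by more than 2-fold, although their values were low and Slc25a34 passed the filter through NgWt libraries alone, and for Slc25a48 the NgKo libraries were spread more widely than the NgWt libraries. After median-of-ratios scaling Slc25a34 no longer passed the filter. Slc25a24, a calcium-regulated carrier of ATP-magnesium and phosphate, had 18.1, 17.7 and 18.1 in the NgKo libraries, against 22.9 and 23.7 in the NgWt libraries, a log2 change of -0.37 ± 0.031 (SE; adjusted p = 2.1e-05, limma). For Slc25a12, the aspartate-glutamate carrier of the malate-aspartate shuttle, the NgKo libraries held 12.98, 13.5 and 12.7 and the NgWt libraries 16.8 and 15.9, a log2 change of -0.32 ± 0.04 (SE; adjusted p = 1.6e-04, limma). The NgWt libraries lay above the NgKo libraries in both. The other falls were Slc25a16 at -0.26, Slc25a36, a pyrimidine nucleotide carrier, at -0.24 and Slc25a30 at -0.22 on the log2 scale. The median-of-ratios factors gave a change of -0.053 (adjusted p = 0.28) for Slc25a12, -0.0015 (adjusted p = 0.99) for Slc25a16, 0.024 (adjusted p = 0.63) for Slc25a36 and 0.023 (adjusted p = 0.85) for Slc25a30. Taking out the length trend gave 0.016 (adjusted p = 0.73) for Slc25a12, -0.16 (adjusted p = 0.11) for Slc25a16, 0.053 (adjusted p = 0.27) for Slc25a36 and -0.065 (adjusted p = 0.53) for Slc25a30. Slc25a16 had a log2 change of -0.26 (adjusted p = 0.058) without NgWt replicate 1 and -0.26 (adjusted p = 0.053) without NgWt replicate 2. Slc25a30 had a log2 change of -0.16 (adjusted p = 0.12) without NgKo replicate 2, -0.24 (adjusted p = 0.06) without NgKo replicate 3 and -0.13 (adjusted p = 0.27) without NgWt replicate 1. With no filter on low values the adjusted p of Slc25a30 was 0.054. Slc25a10, the dicarboxylate carrier, was at 9.49, 9.3 and 9.64 in NgKo and at 6.93 and 7.09 in NgWt, a log2 change of 0.42 ± 0.037 (SE; adjusted p = 2.8e-05, limma). This rise, without overlap between the groups, was joined by Slc25a45 at 0.41 and Slc25a23, a relative of Slc25a24, at 0.35 on the log2 scale. Slc25a21, the oxodicarboxylate carrier, was not tested, with 0.09, 0.13 and 0.12 in NgKo and 0.04 and 0.05 in NgWt.

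Most metal carriers were lower. Of 11 listed, 9 were tested, 7 were lower and 2 higher, against 60.1% and 37.9% of all tested genes. The median log2 change was -0.51, and that of all tested genes -0.28. Median-of-ratios factors gave the class a median of -0.24, and with no length trend one of -0.26, with 6 falls called under each. The promoter windows of Slc30a1, the zinc exporter ZnT1, and Slc30a4, the vesicular zinc carrier ZnT4, are shown because Slc30a1 is a textbook target of the metal-sensing factor MTF-1, whose response element holds the core TGCACNC or TGCGCNC. Capitals mark this core on either strand.
Slc30a1 (chr1:191906531-191906830, plus strand): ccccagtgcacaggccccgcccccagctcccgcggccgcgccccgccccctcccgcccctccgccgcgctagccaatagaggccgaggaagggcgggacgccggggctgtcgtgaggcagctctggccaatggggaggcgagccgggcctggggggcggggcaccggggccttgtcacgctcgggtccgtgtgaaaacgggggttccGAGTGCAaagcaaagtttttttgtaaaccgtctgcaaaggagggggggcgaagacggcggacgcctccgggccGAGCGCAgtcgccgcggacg
Slc30a4 (chr2:122702614-122702913, minus strand): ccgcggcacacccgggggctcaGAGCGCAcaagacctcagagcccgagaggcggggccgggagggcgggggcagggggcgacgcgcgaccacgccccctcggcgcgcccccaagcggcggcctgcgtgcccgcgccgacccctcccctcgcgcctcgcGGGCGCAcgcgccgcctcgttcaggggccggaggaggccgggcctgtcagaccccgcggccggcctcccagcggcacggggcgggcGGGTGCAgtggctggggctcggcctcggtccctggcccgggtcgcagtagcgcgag

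Of the 7 metal carriers that fell, 6 had the core in a window (Slc30a1, Slc30a2, Slc30a4, Slc31a2, Slc41a1 and Slc41a2), as had 1 of the 2 that rose (Slc39a5). The core is short, and it was in 25.7% of all windows and in 32 of 94 windows of solute carriers. No window of a carrier held both this core and the ATF core. The values of Slc30a1 were 2.75, 2.78 and 2.83 in NgKo and 4.33 and 4.06 in NgWt, with a log2 change of -0.55 ± 0.056 (SE; adjusted p = 5.5e-05, limma). In NgKo Slc30a4 stood at 7.44, 6.77 and 7.08, against 9.77 and 9.7 in NgWt, a log2 change of -0.44 ± 0.047 (SE; adjusted p = 6.9e-05, limma). Slc30a2, the zinc carrier ZnT2, had 0.46, 0.57 and 0.58 in the NgKo libraries, against 0.97 and 1.02 in the NgWt libraries, a log2 change of -0.67 ± 0.11 (SE; adjusted p = 6.1e-04, limma). These zinc carriers of the Slc30 family, of which Slc30a1 was added after its values were seen, were lower in every NgKo library than in any NgWt library. For Slc39a2, the zinc importer ZIP2, the NgKo libraries held 0.62, 0.84 and 0.75 and the NgWt libraries 1.62 and 1.36, a log2 change of -0.82 ± 0.12 (SE; adjusted p = 4.1e-04, limma). Slc31a2, a relative of the copper importer, was at 9.01, 10.2 and 10.1 in NgKo and at 13.9 and 13.99 in NgWt, a log2 change of -0.51 ± 0.056 (SE; adjusted p = 8.2e-05, limma). The values of Slc41a2, a magnesium carrier, were 0.76, 0.59 and 0.64 in NgKo and 1.23 and 1.14 in NgWt, with a log2 change of -0.66 ± 0.11 (SE; adjusted p = 6.8e-04, limma). Each of these was likewise lower in all NgKo libraries. In NgKo Slc41a1, a sodium-magnesium exchanger, stood at 8.73, 9.21 and 9.76, against 11.9 and 11.6 in NgWt, a log2 change of -0.34 ± 0.05 (SE; adjusted p = 3.6e-04, limma). When scaled by median of ratios, the difference came to -0.075 (adjusted p = 0.23) for Slc41a1. Once the length trend was taken out the value was -0.087 (adjusted p = 0.16) for Slc41a1. Slc39a5, the zinc importer ZIP5, rose by 0.49 and Slc11a1, the phagosomal metal carrier of macrophages, by 0.46 on the log2 scale. Slc39a4, the zinc importer ZIP4, was not tested, with 0.46, 0.42 and 0.28 in NgKo and 0.13 and 0.15 in NgWt, and nor was Slc30a3, the zinc carrier of synaptic vesicles, with 0.21, 0.31 and 0.25 in NgKo and 0.04 and 0.1 in NgWt.

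Genes of metal handling outside the family moved the other way. Of 10 tested, 8 were higher and 2 lower, against 37.9% and 60.1% of all tested genes. The median log2 change was 0.42 (0.69 with median-of-ratios scaling, 0.11 with the length trend taken out). Trf, the gene of the iron carrier transferrin and also a liver product, had a log2 change of 1.39 ± 0.035 (SE; adjusted p = 7.8e-08, limma). Hmox1, of heme oxygenase, had one of 0.93 ± 0.041 (SE; adjusted p = 1.1e-06, limma). The metallothionein genes Mt1 and Mt2, which bind zinc and are MTF-1 targets, were chosen after their values were seen. Mt1 had 30.8, 31.1 and 29.9 in the NgKo libraries, against 23.4 and 22.2 in the NgWt libraries, a log2 change of 0.42 ± 0.034 (SE; adjusted p = 1.9e-05, limma). For Mt2 the NgKo libraries held 27.4, 28.2 and 26.96 and the NgWt libraries 17.6 and 18.4, a log2 change of 0.61 ± 0.034 (SE; adjusted p = 3.0e-06, limma). Both were higher in every NgKo library than in either NgWt library, while Slc30a1 was lower. Liver and erythroid markers were higher in the same libraries, and their part in these rises was not tested.

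Of 8 carriers of organic ions, 6 were tested, 5 were lower and 1 higher, with a median log2 change of -0.44. This median became -0.19 with median-of-ratios scaling and -0.30 when the length trend was taken out. Slc10a6, a carrier of sulfated steroids, was at 0.78, 0.72 and 0.73 in NgKo and at 2.95 and 3.06 in NgWt, a log2 change of -1.71 ± 0.077 (SE; adjusted p = 1.2e-06, limma). The values of Slc47a1, the proton-coupled cation exporter MATE1, were 0.45, 0.59 and 0.42 in NgKo and 0.9 and 0.99 in NgWt, with a log2 change of -0.70 ± 0.12 (SE; adjusted p = 9.8e-04, limma). In NgKo Slc22a23, an orphan of the organic ion family, stood at 4.22, 4.34 and 4.19, against 6.22 and 6.53 in NgWt, a log2 change of -0.56 ± 0.047 (SE; adjusted p = 2.3e-05, limma). All 3 were lower in every NgKo library, Slc10a6 by more than 2-fold. Slc47a1 needed the NgWt libraries to pass the filter. Slc22a4, the ergothioneine carrier OCTN1, had 1.9, 1.53 and 1.85 in the NgKo libraries, against 2.28 and 2.24 in the NgWt libraries, a log2 change of -0.33 ± 0.095 (SE; adjusted p = 0.011, limma). For Slc22a15 the NgKo libraries held 1.45, 1.37 and 1.34 and the NgWt libraries 1.65 and 1.64, a log2 change of -0.21 ± 0.074 (SE; adjusted p = 0.024, limma). After scaling by median of ratios, the change was -0.083 (adjusted p = 0.49) for Slc22a4 and 0.022 (adjusted p = 0.82) for Slc22a15. With no length trend it was 0.13 (adjusted p = 0.15) for Slc22a15. Slc22a4 had a log2 change of -0.31 (adjusted p = 0.052) without NgWt replicate 1. Slc22a15 had a log2 change of -0.20 (adjusted p = 0.052) without NgKo replicate 2, -0.19 (adjusted p = 0.067) without NgKo replicate 3, -0.21 (adjusted p = 0.09) without NgWt replicate 1 and -0.22 (adjusted p = 0.081) without NgWt replicate 2. Slc22a17, known as a receptor for lipocalin 2, was at 21.3, 21.8 and 22.4 in NgKo and at 16.2 and 15.8 in NgWt, a log2 change of 0.45 ± 0.034 (SE; adjusted p = 1.3e-05, limma). It was the 1 tested member of the class that was higher in all NgKo libraries. Slc10a4, a vesicular protein of cholinergic and monoaminergic neurons, was too low to test and had 0.32, 0.46 and 0.42 in NgKo and 0.07 and 0.05 in NgWt. Slc22a13 had 0.1, 0.07 and 0.14 in NgKo and 0.04 and 0.03 in NgWt.

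The neurotransmitter class had 5 listed and 2 tested members, 1 higher and 1 lower. The values of Slc6a2, the noradrenaline transporter of sympathetic neurons, were 0.91, 0.85 and 1.17 in NgKo and 0.12 and 0.1 in NgWt, with a log2 change of 1.76 ± 0.13 (SE; adjusted p = 1.4e-05, limma). In NgKo Slc6a4, the serotonin transporter, stood at 1.15, 1.29 and 1.05, against 2.84 and 3.04 in NgWt, a log2 change of -1.18 ± 0.091 (SE; adjusted p = 1.5e-05, limma). The NgKo libraries lay wholly below the NgWt libraries for Slc6a4, and this direction held under every scaling. Slc6a2 was the largest rise of all tested solute carriers. It passed the filter through NgKo libraries alone, so the filter fixed its direction and nothing is read from its separation. Neuron markers summed 33.9 to 34.7 in the NgKo libraries and 8.22 to 8.31 in the NgWt libraries, with Prph, of the filament protein peripherin, at a log2 change of 2.46 ± 0.065 (SE; adjusted p = 9.4e-08, limma). Th and Dbh, enzymes of noradrenaline synthesis chosen after their values were seen, had log2 changes of 2.70 ± 0.12 (SE; adjusted p = 1.1e-06, limma) and 2.19 ± 0.08 (SE; adjusted p = 4.4e-07, limma). The part of neuronal RNA in the change of Slc6a2 was not tested. Of the members too low to test, Slc17a6, the vesicular glutamate transporter VGLUT2, had 0.04, 0.06 and 0.02 in NgKo and was listed at 0 in both NgWt libraries. Slc17a3, an organic anion carrier of kidney and liver, had 0.1, 0.06 and 0.1 in NgKo and 0.2 and 0.17 in NgWt.

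Of 14 carriers of inorganic ions, 12 were tested, 4 were higher, 7 lower and 1 not called (median log2 change -0.33). With libraries scaled by median of ratios the median of these carriers was -0.087, and with the length trend taken out it was 0.0020, with 3 and 4 falls called. Slc26a2, the sulfate carrier needed for cartilage matrix, had 3.75, 3.8 and 4.05 in the NgKo libraries, against 8.8 and 8.4 in the NgWt libraries, a log2 change of -1.10 ± 0.052 (SE; adjusted p = 1.4e-06, limma). For Slc9a2, the sodium-proton exchanger NHE2 of epithelia, the NgKo libraries held 0.43, 0.43 and 0.58 and the NgWt libraries 1.13 and 0.9, a log2 change of -0.79 ± 0.14 (SE; adjusted p = 7.9e-04, limma). In both the NgKo libraries were below the NgWt libraries. The ratio of NgKo to NgWt means was 0.45 for Slc26a2 and 0.47 for Slc9a2, which needed the NgWt libraries to pass the filter. Further falls were Slc9a7 at -0.63, Slc4a11 at -0.41 and Slc4a7, a sodium bicarbonate cotransporter, at -0.37 on the log2 scale. The median-of-ratios factors gave a change of -0.20 (adjusted p = 0.12) for Slc4a11 and -0.11 (adjusted p = 0.17) for Slc4a7. Taking out the length trend gave 0.011 (adjusted p = 0.88) for Slc4a7. Slc8a2, a sodium-calcium exchanger of brain, was at 1.71, 1.88 and 1.78 in NgKo and at 0.99 and 1.09 in NgWt, a log2 change of 0.66 ± 0.081 (SE; adjusted p = 1.4e-04, limma). The values of Slc4a3, the anion exchanger AE3 of brain and heart, were 8.11, 8.27 and 8.22 in NgKo and 6.3 and 6.06 in NgWt, with a log2 change of 0.39 ± 0.039 (SE; adjusted p = 4.9e-05, limma). Both rises were without overlap, as were 98.2% of all listed genes. Slc9a5, a sodium-proton exchanger of brain, rose by 0.45 on the log2 scale. In NgKo Slc12a5, the neuronal potassium-chloride cotransporter KCC2, stood at 0.67, 0.7 and 0.83, against 0.59 and 0.52 in NgWt, a log2 change of 0.29 ± 0.11 (SE; adjusted p = 0.036, limma). Slc12a5 had a log2 change of 0.22 (adjusted p = 0.097) without NgKo replicate 3, 0.35 (adjusted p = 0.064) without NgWt replicate 1 and 0.22 (adjusted p = 0.19) without NgWt replicate 2. Slc12a5 is outside the rule for named genes and is given because leaving out any of 3 libraries ended its call. Slc26a7, a chloride carrier, had a log2 change of -0.30 (adjusted p = 0.052) and was called without NgKo replicate 1 (adjusted p = 0.004). Slc26a1, a sulfate carrier, had 0.32, 0.32 and 0.23 in NgKo and 0.14 and 0.13 in NgWt, and Slc34a2, an epithelial phosphate carrier, had 0.07, 0.13 and 0.07 in NgKo and 0.41 and 0.42 in NgWt. Neither was tested.

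Carriers of nucleosides and vitamins numbered 6, all tested, with 4 lower and 2 higher (median log2 change -0.65). Median-of-ratios factors gave the class a median of -0.40, and with no length trend one of -0.56. Slc46a2, a relative of the proton-coupled folate carrier, had 0.34, 0.4 and 0.53 in the NgKo libraries, against 1.9 and 1.66 in the NgWt libraries, a log2 change of -1.60 ± 0.14 (SE; adjusted p = 2.3e-05, limma). For Slc28a3, a concentrative nucleoside carrier, the NgKo libraries held 0.07, 0.09 and 0.08 and the NgWt libraries 0.71 and 0.78, a log2 change of -1.59 ± 0.11 (SE; adjusted p = 1.0e-05, limma). Slc52a3, a riboflavin carrier, was at 1.16, 1.12 and 1.05 in NgKo and at 2.12 and 2.67 in NgWt, a log2 change of -0.95 ± 0.1 (SE; adjusted p = 7.9e-05, limma). These were among the largest falls of the family. All NgKo libraries were below the NgWt libraries for Slc46a2, which needed the NgWt libraries to pass the filter, and for Slc52a3. Slc28a3 passed the filter through NgWt libraries alone, so the filter fixed its direction and nothing is read from its separation. Epidermis markers summed 1500 to 1570 in the NgKo libraries and 3560 each in the NgWt libraries, and the part of epidermal RNA in the large falls was not tested. The values of Slc19a2, a thiamine carrier, were 2.85, 2.63 and 2.69 in NgKo and 3.49 and 3.57 in NgWt, with a log2 change of -0.35 ± 0.06 (SE; adjusted p = 8.2e-04, limma). After scaling by median of ratios, the change was -0.094 (adjusted p = 0.2) for Slc19a2. In NgKo Slc19a1, the reduced folate carrier, stood at 5.2, 5.1 and 5.04, against 3.92 and 3.81 in NgWt, a log2 change of 0.38 ± 0.046 (SE; adjusted p = 1.3e-04, limma). Slc29a4, an equilibrative carrier of adenosine and monoamines, had 2.66, 2.39 and 2.53 in the NgKo libraries, against 1.64 and 1.77 in the NgWt libraries, a log2 change of 0.51 ± 0.073 (SE; adjusted p = 3.4e-04, limma). The thiamine and folate carriers of the Slc19 family thus lay on opposite sides in the values as deposited.

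The Slc35 family, which brings nucleotide sugars into the Golgi, had 3 members, 2 lower and 1 higher (median log2 change -0.33). This median became -0.095 with median-of-ratios scaling and -0.14 when the length trend was taken out. For Slc35a3, a carrier of UDP-N-acetylglucosamine, the NgKo libraries held 3.8, 3.51 and 3.49 and the NgWt libraries 4.98 and 5.07, a log2 change of -0.46 ± 0.056 (SE; adjusted p = 1.4e-04, limma). Slc35g2 was at 1.22, 1.37 and 1.28 in NgKo and at 1.77 and 1.6 in NgWt, a log2 change of -0.33 ± 0.084 (SE; adjusted p = 0.0061, limma). The median-of-ratios factors gave a change of -0.095 (adjusted p = 0.36) for Slc35g2. Slc35g2 had a log2 change of -0.27 (adjusted p = 0.053) without NgWt replicate 1. The values of Slc35d2, a carrier of nucleotide sugars, were 1.83, 1.76 and 1.8 in NgKo and 1.37 and 1.31 in NgWt, with a log2 change of 0.36 ± 0.07 (SE; adjusted p = 0.0015, limma). Each of the 3 had groups that did not overlap, as had 98.2% of all listed genes. Among 4 tested carriers of lipids and choline, of 6 listed, 2 were higher and 2 lower (median log2 change 0.0070). With libraries scaled by median of ratios the median of these carriers was 0.27, and with the length trend taken out it was 0.20. In NgKo Slc27a1, the fatty acid transport protein FATP1 of muscle and fat, stood at 8.68, 7.69 and 8.22, against 6.54 and 6.03 in NgWt, a log2 change of 0.37 ± 0.061 (SE; adjusted p = 6.6e-04, limma). Slc44a3 had 1.34, 1.45 and 1.79 in the NgKo libraries, against 0.94 and 0.76 in the NgWt libraries, a log2 change of 0.69 ± 0.13 (SE; adjusted p = 0.0013, limma). For Slc44a1, a choline carrier, the NgKo libraries held 7.73, 6.81 and 6.9 and the NgWt libraries 9.08 and 9.32, a log2 change of -0.36 ± 0.059 (SE; adjusted p = 6.9e-04, limma). The first pair were higher and Slc44a1 lower in every NgKo library. Slc44a5 was at 0.49, 0.38 and 0.44 in NgKo and at 0.62 and 0.65 in NgWt, a log2 change of -0.37 ± 0.11 (SE; adjusted p = 0.013, limma). Slc44a5 passed the filter through NgWt libraries alone, so the filter fixed its direction. When scaled by median of ratios, the difference came to -0.091 (adjusted p = 0.21) for Slc44a1 and -0.18 (adjusted p = 0.19) for Slc44a5. Once the length trend was taken out the value was -0.13 (adjusted p = 0.066) for Slc44a1 and -0.078 (adjusted p = 0.54) for Slc44a5. Slc27a2 and Slc27a5, fatty acid transport proteins of liver, were too low to test. Slc27a2 had 0.14, 0.25 and 0.21 in NgKo and 0.01 and 0.04 in NgWt. Slc27a5 had 0.1, 0.06 and 0.07 in NgKo and 0.01 and 0.01 in NgWt. Both were higher in every NgKo library, as were the liver markers, which summed 103 to 104 in the NgKo libraries and 1.67 to 1.88 in the NgWt libraries, and whose part was not tested.

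Carriers of peptides and urea had 4 listed and 3 tested members, 2 higher and 1 lower (median log2 change 0.48). Median-of-ratios factors gave the class a median of 0.72, and with no length trend one of 0.67. The values of Slc15a1, the intestinal peptide carrier PEPT1, were 0.1, 0.09 and 0.09 in NgKo and 1.01 and 0.94 in NgWt, with a log2 change of -1.83 ± 0.11 (SE; adjusted p = 3.9e-06, limma). In NgKo Slc15a2, the peptide carrier PEPT2, stood at 2.54, 2.46 and 2.2, against 1.7 and 1.6 in NgWt, a log2 change of 0.48 ± 0.08 (SE; adjusted p = 7.2e-04, limma). Groups did not overlap in Slc15a2. Slc15a1 had the largest fall of all tested solute carriers, but it passed the filter through NgWt libraries alone, so the filter fixed its direction. Nothing is read from its separation or from its contrast with Slc15a2. Slc14a1, the urea carrier of red blood cells and kidney, had 2.34, 2.23 and 2.65 in the NgKo libraries, against 1.56 and 1.58 in the NgWt libraries, a log2 change of 0.54 ± 0.084 (SE; adjusted p = 4.7e-04, limma). Erythroid markers summed 231 to 236 in the NgKo libraries and 102 to 105 in the NgWt libraries, and their part in this rise was not tested. Slc14a2, a kidney urea carrier, was not tested, with 0.07, 0.09 and 0.06 in NgKo and 0.02 and 0.04 in NgWt.

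**Figure D3:**
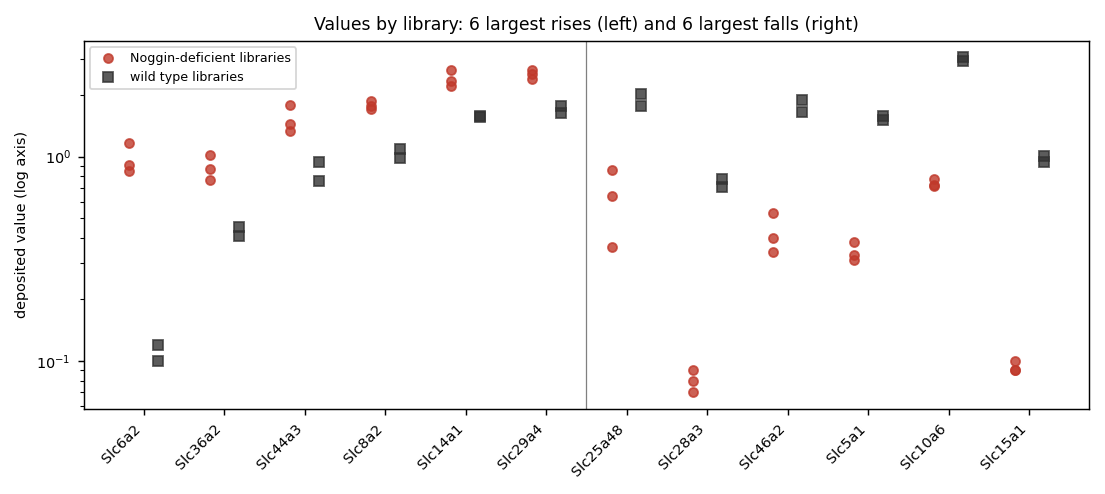
Deposited values (vertical log axis, unit not named) in each library for the 6 largest rises and 6 largest falls among the tested solute carriers. Circles are the 3 NgKo libraries and squares the 2 NgWt libraries. No gene shows overlap, as in 98.2% of all listed genes. Slc6a2, Slc36a2, Slc15a1, Slc5a1 and Slc28a3 passed the filter through 1 group alone, which fixed their direction. The gap is widest for Slc15a1, at 0.1, 0.09 and 0.09 in NgKo and 1.01 and 0.94 in NgWt.

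Carriers that bear other symbols, and genes of the sodium pump and its relatives, also went both ways. Of 11 tested, 5 were higher and 6 lower, against 37.9% and 60.1% of all tested genes. The median log2 change was -0.38 (-0.12 with median-of-ratios scaling). For Atp1b4, a muscle gene related to the sodium pump beta subunits, the NgKo libraries held 19.4, 19.6 and 19.9 and the NgWt libraries 49.6 and 49.5, a log2 change of -1.33 ± 0.027 (SE; adjusted p = 3.0e-08, limma). Its change is not read as one of the pump. All 3 NgKo libraries were below both NgWt libraries.

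The direction of change was also set against transcript length, which the choice of the carriers did not use. The median longest transcript was 3284 bases for carriers called higher and 4433 for those called lower, against 2302 and 4477 bases over all tested genes. Among carriers above the median length of all tested genes, 13 of 48 were called higher (27.1%, against 18.4% of all such genes). At or below that length, 15 of 32 were called higher (46.9%, against 56.4% of all such genes). After removal of a trend on length, 28 carriers were called higher and 34 lower, against 35.5% and 36.9% of all genes tested. As deposited, 9 of the 12 substrate classes had more falls than rises, and after median-of-ratios scaling 4 had. These tallies stand beside the balance over all tested genes, of which 60.1% were lower and 37.9% higher as deposited, and 32.2% lower and 38.6% higher after that scaling. The medians of the sugar, metal, organic ion, nucleotide sugar, and nucleoside and vitamin classes were negative, and those of the neurotransmitter, lipid and peptide classes positive, under all 4 scalings, with the lipid class at 0.0070 as deposited. The median of all tested genes was also negative, at -0.28 as deposited, -0.0255 by median of ratios, -0.0973 by upper quartile and -0.00623 without the length trend. In that order the nucleotide sugar class, of 3 genes, lay -0.044, -0.070, -0.062 and -0.13 from it. Outside the metal, organic ion, inorganic ion and nucleotide sugar classes, each class median includes at least 1 member that passed the filter through 1 group alone. The metal, organic ion and inorganic ion medians include Slc39a5, Slc47a1 and Slc9a2, whose direction the filter favoured. The medians of the amino acid, monocarboxylate, mitochondrial and inorganic ion classes changed sign or came within 0.05 of 0 under at least 1 of these scalings.

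**Figure D4:**
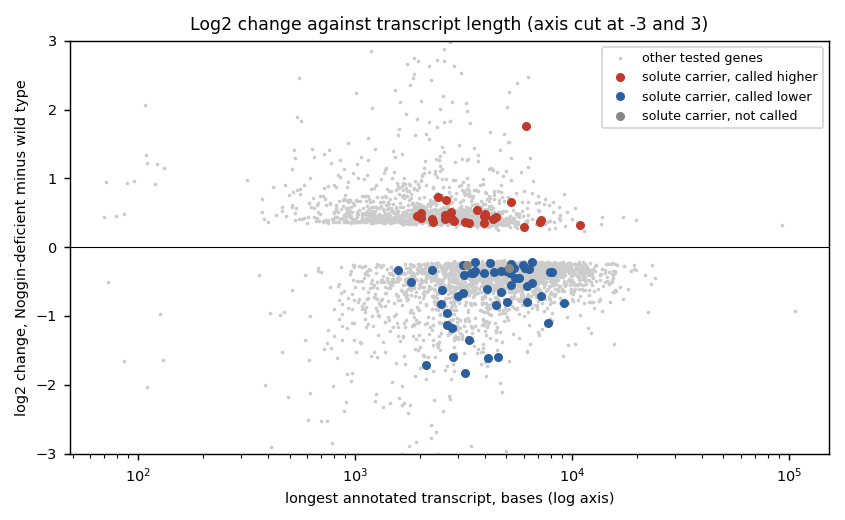
Log2 change (NgKo minus NgWt, vertical axis, shown from -3 to 3) against the length of the longest annotated transcript in bases (log axis) for the tested genes with a length. Grey dots are other genes and coloured dots solute carriers by call. Few genes lie close to 0, and the carriers called higher have a median length of 3284 bases and those called lower one of 4433 bases.

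**Figure D5:**
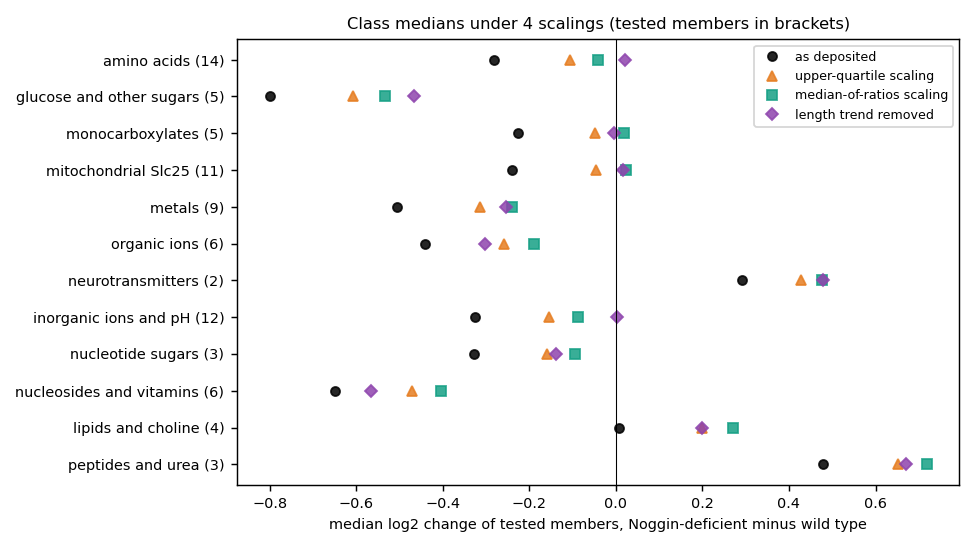
Median log2 change (NgKo minus NgWt, horizontal axis) of the tested members of each substrate class, as deposited and under 3 other scalings, with the number tested as deposited in brackets. The mitochondrial class had 10 tested members under the library scalings. The metal class, in which no tested member passed the filter through 1 group alone, stays between -0.51 and -0.24, and the mitochondrial class lies on both sides of 0. The metal class includes Slc39a5, which needed the NgKo libraries to pass the filter.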

How the data were processed

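RNA sequencing was done on 3 NgKo and 2 NgWt libraries. RNA was purified on columns and libraries were made with a stranded mRNA kit and 11 PCR cycles, per the labels' protocols. The submitters' processing notes list the tools STAR 2.4.2a and DESeq2 and the build mm9, with no role given. The deposited tables hold 1 non-negative signal per gene and library, normalized by the authors in a unit not given in the sources used here, for 4743 genes selected by a rule that is likewise not given. Depth is unknown, so no counting interval was made. The values are decimals and no count model was used.

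Log2(value + 0.25) was tested with limma 3.58.1 in R 4.3.3 (limma-trend, NgKo minus NgWt, no covariate, Benjamini-Hochberg adjustment over 3913 genes). A fold change on this scale understates the change of low genes. Transcript lengths are the longest GENCODE vM21 transcript on GRCm38, matched by symbol for 4460 genes and all 99 carriers, and promoter windows are from RefSeq on GRCm38.p6, matched for 75 carriers. Substrate classes follow family numbers. Library values are printed for the 3 highest and 3 most changed tested members of each class, all of a class with 6 or fewer, and the 6 largest rises and falls of the family, 55 genes in all, and otherwise as stated. Some carriers that enter the counts are not reported here by name. The members, lists and rules were chosen with earlier results of these data known. The code was tested on simulated data. Alternatives were another pseudocount, filter, scaling or fold threshold, removal of a length trend (lowess, span 0.5), a replicate block and leaving out each library.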

Additional observations from a re-analysis of the deposited data

How the results depend on the processing

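Of the 80 tested carriers, 57 kept their direction and their side of the threshold in each of the 13 settings other than the 1.5-fold threshold in which they were tested. Against a 1.5-fold change, 569 of all genes passed, 165 higher and 404 lower, and 1 carrier was higher and 13 lower. The higher carrier and some of the lower ones had passed the filter through 1 group alone, so nothing is read from these carrier counts. With a minimum value of 2, 30 carriers were called lower, since fewer were tested. Median-of-ratios scaling left 1256 genes and 29 carriers called lower, and 4 classes with more falls than rises. Removal of the length trend left 1379 genes called lower and 5 such classes. Signs of named carriers turned, without a call in the new direction, under median-of-ratios scaling (log2 changes of 0.023 for Slc25a30, 0.024 for Slc25a36, 0.022 for Slc22a15 and 0.018 for Slc16a6) and after removal of the length trend (0.053 for Slc25a36, 0.13 for Slc22a15, 0.064 for Slc37a2, 0.027 for Slc38a2, 0.016 for Slc25a12, 0.014 for Slc7a2 and 0.011 for Slc4a7). The cause was not tested. Upper-quartile scaling ended 11 calls, all of them also lost under median-of-ratios scaling. Leaving out 1 library gave 26 to 28 carriers higher and 38 to 50 lower, with 74 tested without either NgWt replicate, where the lone wild type library is assumed to vary like the NgKo libraries. Deviations from the group means correlated at -0.126 and -0.0617 between same-numbered libraries. The deviations of 2 NgWt libraries mirror each other, so these values cannot tell whether the replicate numbers pair the libraries. With the number as a replicate block 27 carriers were higher and 49 lower. With the depth unknown, the precision of low values cannot be stated.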
